A study of Drosophila melanogaster with 24 samples.

Results

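The dpr, DIP, beat and side genes of the fly Drosophila melanogaster encode cell surface and secreted proteins of the immunoglobulin superfamily. Members were chosen by symbol among the protein-coding genes of the deposited counts, a rule that uses no measured value, although the families were proposed with earlier results of these data known. They came to 54 of 17545 genes (13924 of them protein-coding), namely 21 dpr genes, 11 DIP genes, 14 beat genes and 8 side genes.

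Dpr proteins (defective proboscis extension response) on one cell bind DIP proteins (Dpr-interacting proteins) on another, and Beat proteins bind Side proteins in the same way. Both networks are known for matching neurons with their synaptic partners in the fly nervous system, where single neuron types carry different combinations of members. Side on larval muscle attracts motor axons that carry its receptor Beat-Ia, and Dpr10 on muscle pairs with DIP-alpha on motor neurons.

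Expression was measured by RNA sequencing in indirect flight muscle (IFM), the dorsal longitudinal and dorsal ventral muscles of the thorax, and in the ventral nerve cord (VNC), which holds the motor neurons of those muscles. Each tissue was taken from pupae 30 h after puparium formation and from adults of 15 days. Beginning at the first instar, larvae ate food made with methylmercury chloride at 5 µM (MeHg, a neurotoxic form of mercury) or control food holding only the solvent (0.01% DMSO), and all adults lived on food free of MeHg after eclosion. The 8 groups of 3 libraries thus cross tissue, stage and treatment, each library pools tissue of 50 animals of both sexes, and the labels name no strain, allele or transgene. Animals were fixed in Methacarn before dissection, and the p-values below measure the spread between such pools.

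Depth ran from 12.4 to 33.1 (in 1e6 counts per library) in pupal VNC and from 35.1 to 39.3 in adult VNC, beside 17.1 to 29.4 for the muscle of pupae and 24.3 to 36.3 for that of adults. Muscle markers (8 genes such as Mhc and Act88F) summed to 61076 to 73975 counts per 1e6 counts (CPM) in control pupal IFM against 467 to 582 CPM in control pupal VNC. Neuron markers (elav, nSyb, brp, Syt1, Syx1A, Rab3, cpx and unc-13) summed to 7508 to 8118 CPM in control pupal VNC against 477 to 684 CPM in control pupal IFM, and each of the 8 was counted there. Fat body markers (Fbp1, Lsp1alpha, Lsp2, apolpp and Yp1) were high in both tissues. They summed to 14912 to 17998 CPM in control pupal VNC and 7651 to 15402 CPM in control pupal IFM. Replicate 2 of the MeHg pupal VNC stood apart, with the lowest total of all libraries and a neuron marker sum of 5558 CPM against 7790 and 8225 CPM in the other libraries of its group. The library titles carry a tag of unstated meaning, with no tag shared by pupae and adults, so stage and tag cannot be told apart. In both adult tissues MeHg replicate 4 carries a tag (7_28) that no control has. In adults MeHg and tag are therefore not fully separate either.

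The members are long genes. Their median span was 36.2 kb against 2.16 kb for all protein-coding genes, from 3.74 kb for dpr19 to 379 kb for DIP-lambda, and 21 of the 54 lie on chromosome arm 3R and 16 on 2L. Several lie side by side in the dm6 build, among them dpr6 and dpr10 on 3L with 8.1 kb between them and beat-Ic and beat-Ia on 2L with 8.3 kb between them. Exons of 6 members overlap exons of a gene on the opposite strand (dpr4, dpr16, DIP-alpha, DIP-gamma, DIP-zeta and side-IV), and whether counting used the strand is not given in the sources used here. Counts of these 6 are uncertain to that extent, above all for dpr16, whose partner cno (the junction protein Canoe) was counted at 120 CPM in control adult IFM.

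In the nerve cord nearly the whole set was expressed. Of the 54 members, 53 averaged at least 1 CPM in control pupal VNC and 52 in control adult VNC, with medians of 92.8 and 96.7 CPM. DIP-iota was the lowest member with counts there, at 1.25 CPM in pupae and 0.729 CPM in adults, and dpr12 had the most counts, at 341 and 428 CPM. The remaining gene, beat-IIIa on chromosome 2L (17131024 to 17173118), had 0 counts in all 24 libraries. A count of 0 allows up to 3 counts, or 0.0764 to 0.242 CPM depending on the library, if its reads could be counted, which the files do not show, so the 0 is not read as absence of expression.

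Levels per kilobase of exon (RPKM, CPM per kilobase) allow genes to be compared with each other. Summed over each family, control pupal VNC had 648 RPKM of dpr, 395 of beat, 234 of side and 215 of DIP transcripts. The order was the same in control adult VNC, with 798, 381, 239 and 179 RPKM. In CPM, without division by exon length, side ranked above beat at both stages. Among dpr genes, which mostly encode ligands of DIP receptors, dpr21, dpr7 and dpr12 led in pupal VNC with 92.4 ± 8.29, 82.9 ± 4.63 and 72.5 ± 2.75 RPKM (SD, n = 3). The same genes led in adult VNC, where dpr21 stood at 132 ± 10.2, dpr12 at 91.0 ± 2.33 and dpr7 at 80.7 ± 7.89 RPKM. In CPM the leading dpr genes of control VNC were dpr12, dpr11 and dpr9 at both stages, so these ranks depend on annotated exon length.

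The leading DIP receptor genes in VNC were DIP-lambda (44.9 RPKM in pupae and 34.1 in adults) and DIP-delta (32.0 and 29.1), followed by DIP-beta in pupae (24.6) and DIP-gamma in adults (26.1). Among beat genes, beat-VI (53.0 RPKM), beat-Ia (52.7) and beat-Ib (37.8) led in pupal VNC, and beat-VII (39.8), beat-IIa (39.7) and beat-VI (36.2) in adult VNC. The side gene with the highest level was side-VII at both stages, with 63.9 RPKM in pupae and 46.8 in adults. It was followed by side-II (32.5) and side-IV (30.3) in pupae and by side-VIII (38.8) and side-II (37.3) in adults.

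**Figure D1:**
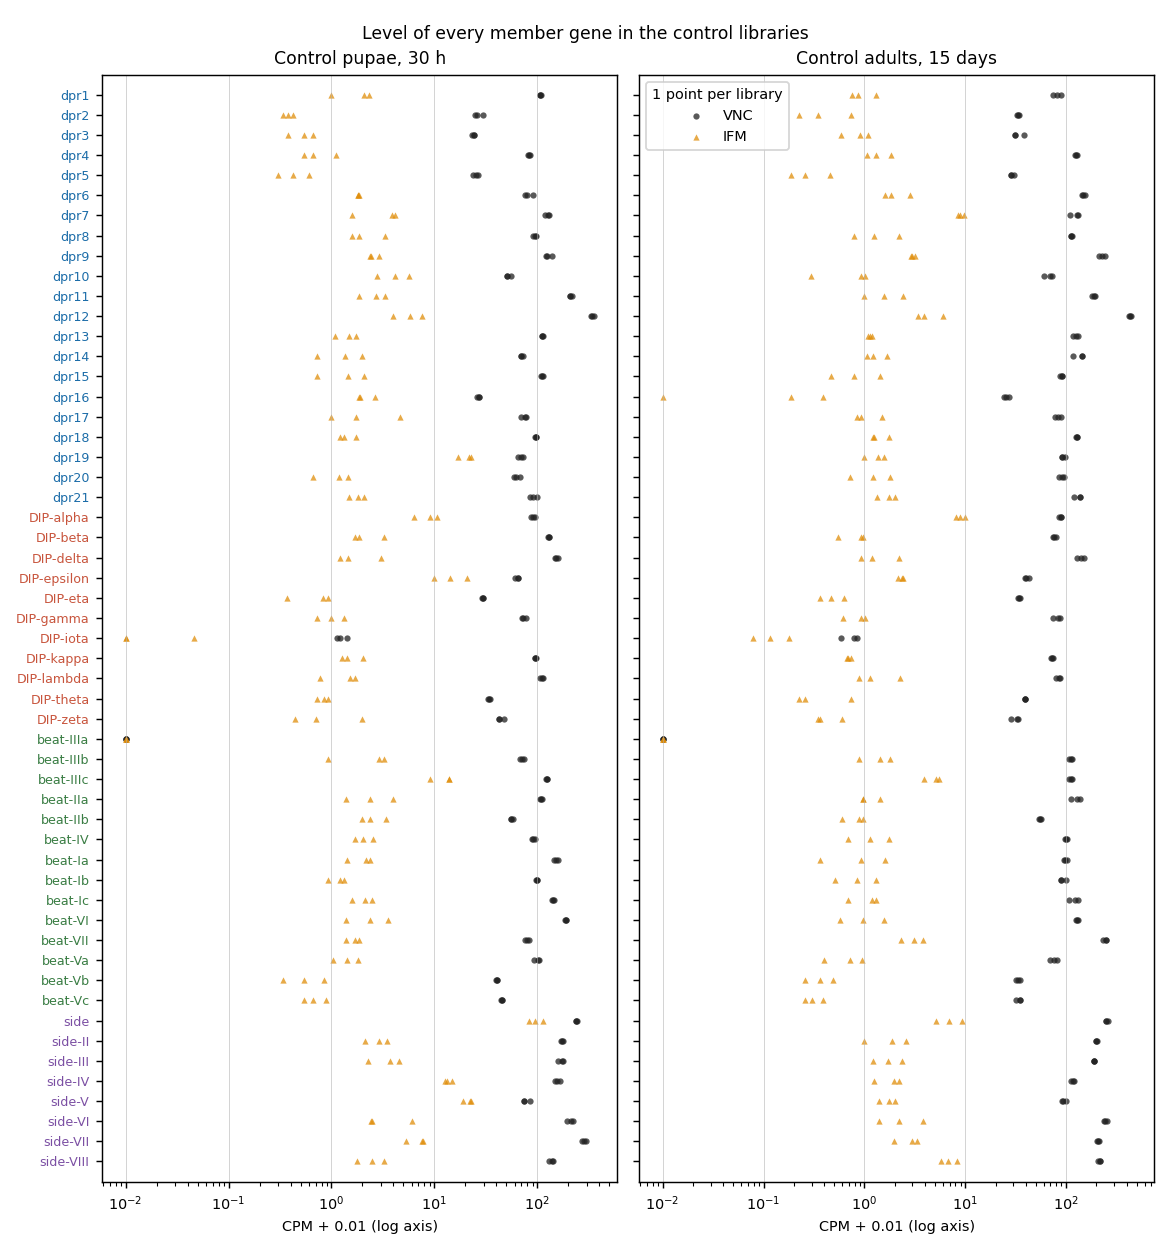
Level of each of the 54 members in the control libraries (CPM plus 0.01 on a log axis, 1 point per library), pupae on the left and adults on the right, with VNC as circles and IFM as triangles. VNC points lie near or above 20 CPM for every member except DIP-iota and beat-IIIa, IFM points lie mostly near 1 to 3 CPM, and side, side-V and dpr19 lie to the right of all other IFM points in pupae other than those of DIP-epsilon, but not in adults.

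In flight muscle most members stood at a few CPM. At least 1 CPM on average was reached by 44 members in control pupal IFM and by 33 in control adult IFM, with medians of 2.01 and 1.21 CPM. Only 6 members reached 10 CPM in control pupal IFM and none did in control adult IFM. The count at or above 2 CPM was 27 in pupae and 12 in adults, and at or above 0.5 CPM it was 50 and 44.

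Few members dominated the muscle profile of pupae. The side gene on chromosome 3R (27375088 to 27437482) was counted at 94.5, 82.5 and 114 CPM in the 3 control pupal IFM libraries. Its relative side-V had 22.4, 19.0 and 21.9 CPM, and dpr19, a dpr gene on 2L (10376168 to 10379905), had 21.8, 16.8 and 22.7 CPM. All 9 of these values exceeded the highest value that any member outside this group and DIP-epsilon reached in those libraries, 14.8 CPM of side-IV in replicate 1.

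DIP-epsilon, a DIP receptor gene on 2L (6377771 to 6411326), followed with 14.0, 9.93 and 20.9 CPM, side-IV with 14.8, 12.7 and 13.1 CPM, and beat-IIIc with 13.7, 8.95 and 13.7 CPM. Ranges of these last genes overlap, so their order in CPM is not resolved. Per kilobase, the highest values in control pupal IFM were 8.28 ± 1.37 RPKM for side, 7.62 ± 1.2 for dpr19, 4.75 ± 1.76 for DIP-epsilon and 3.66 ± 0.318 for side-V (SD, n = 3), and side and dpr19 differed by less than their spread.

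Within families, dpr19 was followed in control pupal IFM by dpr7 (2.10 RPKM) and dpr21 (1.79), DIP-epsilon by DIP-alpha (0.965) and DIP-lambda (0.531), beat-IIIc (3.11) by beat-IIb (1.05) and beat-IIa (0.798), and side and side-V by side-IV (2.64). The summed family levels were 20.4 RPKM of dpr, 18 of side, 9.82 of beat and 8.59 of DIP, so that in RPKM side ranked above beat in pupal muscle alone among the control groups. In CPM side ranked above beat in every control group. In control adult IFM the sums were 14.4 RPKM of dpr, 4.89 of beat, 4.01 of side and 3.70 of DIP. The leading genes there were dpr7 (5.95 ± 0.432 RPKM), dpr21 (1.69), dpr12 (0.944), DIP-alpha (1.00), DIP-epsilon (0.724), DIP-lambda (0.576), beat-IIIc (1.24), beat-VII (0.501), beat-IIIb (0.419), side-VIII (1.25), side-VII (0.615) and side (0.609).

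The comparison of tissues asks where the set is expressed. All 53 members tested were lower in IFM than in VNC, in control pupae and in control adults alike. Across all 12631 genes tested on the 24 libraries, 60% were called in pupae (25.9% higher and 34.1% lower in IFM) and 73% in adults (35% higher and 38% lower), at a Benjamini-Hochberg adjusted p under 0.05 in the quasi-likelihood test of edgeR. The members' median log2 difference, IFM minus VNC, was -5.68 in pupae (range -6.67 to -1.27) and -6.39 in adults (range -6.99 to -2.64), against -0.11 and -0.13 over all genes. Scaling by the RLE method moved the median of all genes by 0.171 in pupae and 0.139 in adults, and all 53 stayed lower. The ranges of IFM and VNC libraries were separate for 65.7% of all genes in pupae and 74.9% in adults.

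Other cell recognition genes, a list of 49 such as Fas2, Dscam1, robo2 and the neuroligins, gave 6 genes higher and 40 lower in pupal IFM, with a median of -2.45. In adults 4 were higher and 41 lower, with a median of -3.21. Those higher in pupal IFM were Nlg1 (log2 5.55 ± 0.34, SE), if, robo2, kirre, rst and mew, the last an integrin subunit as is if. No member was higher in IFM, and the difference between both lists was not tested.

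The smallest tissue differences belonged to side (log2 -1.27 ± 0.17), dpr19 (-1.72 ± 0.13), side-V (-1.84 ± 0.11) and DIP-epsilon (-2.04 ± 0.22) in pupae, all called by edgeR. The value of side depended on gene length. With each library's trend of counts with exonic length removed, side was at -0.11 (edgeR adjusted p 0.489), side-V at -0.67, dpr19 at -1.32 and DIP-epsilon at -1.45 in pupae, and the members' medians were -4.82 in pupae and -5.68 in adults. The other 52 calls in pupae and all 53 in adults were kept.

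Since neuron markers were counted in IFM, each member's IFM level was also set beside the 8 neuron markers as a percentage of its VNC level. In control pupae the markers ran from 1.52% (nSyb, a synaptic vesicle protein) to 20% (Syx1A, a membrane fusion protein of synapses and other membranes), with a median of 2.50%. The median over 53 members was 1.91%, 33 of them lay within the markers' range and 16 below it.

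Above all 8 markers lay side at 40.5%, dpr19 at 29.6%, side-V at 27.2% and DIP-epsilon at 23.6%. In single control pupal IFM libraries side ran from 34.4% to 47.6%, dpr19 from 24.3% to 32.9%, side-V from 24.5% to 28.8% and DIP-epsilon from 15.6% to 32.9%, against 18.6% to 21.9% for Syx1A, so DIP-epsilon alone overlapped that marker. The pupal MeHg libraries, which are separate samples, gave the same 4 genes above the markers' maximum of 25.1%, with DIP-epsilon at 45.2%, side at 39.7%, side-V at 31.4% and dpr19 at 28.9%. Single MeHg libraries ran from 35.2% to 57% for DIP-epsilon, 34% to 49.1% for side and 29.3% to 33.7% for side-V. For dpr19 they ran from 26.9% to 32.3%, barely above the 23.2% to 26.8% of Syx1A. The VNC means behind these shares include replicate 2 of the MeHg pupal VNC, which stood apart. A further 5 members were at 5% or more in control pupae, namely beat-IIIc (9.86%), DIP-alpha (9.58%), side-IV (8.72%), dpr10 (8%) and dpr16 (7.98%), below elav (12.2%) and unc-13 (13.4%).

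In control adults no member exceeded all the markers, which ran from 0.944% to 14.8%. The members' median was 1.14%, and DIP-alpha at 10.3%, dpr7 at 7.38% and DIP-epsilon at 5.62% had the highest shares. In bulk tissue, fewer cells of a type and less RNA per cell cannot be told apart.

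**Figure D2:**
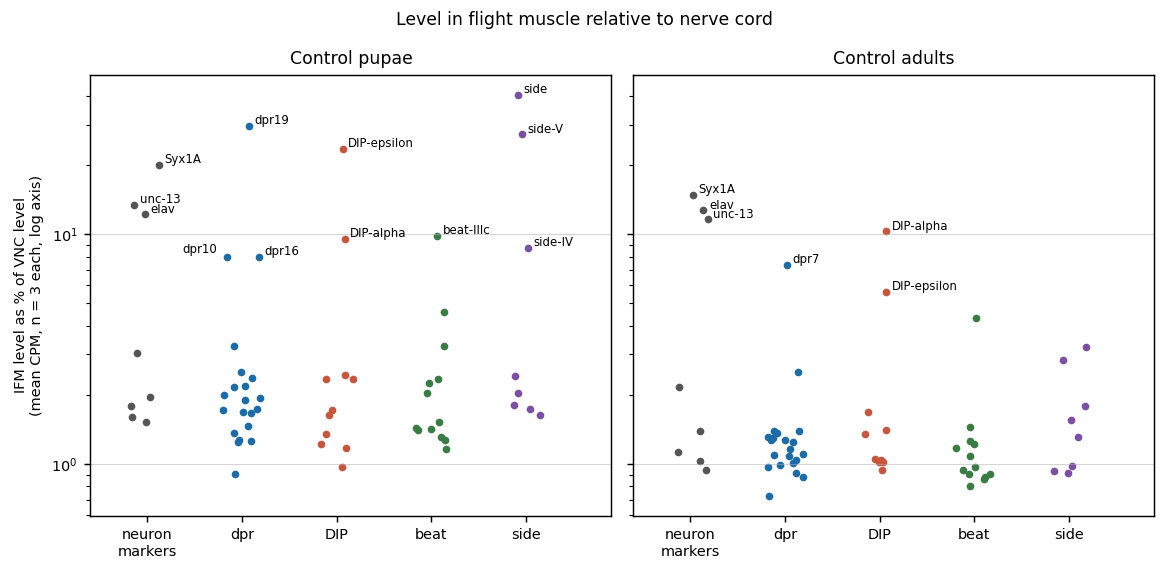
Mean CPM in IFM as a percentage of mean CPM in VNC (log axis, n = 3 libraries each) for the 8 neuron markers and for the members of each family with at least 1 CPM in VNC, in control pupae on the left and control adults on the right. Genes at 5% or more are named, and side, dpr19, side-V and DIP-epsilon lie above every neuron marker in pupae while no member does in adults.

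The comparison of stages asks how the set changes as flight muscle matures. The genes side, side-V and dpr19, which stood high in pupal muscle, fell by more than 3 on the log2 scale by adulthood. The genes dpr7, side-VIII and beat-VII rose. The first 3 were picked as high in the same pupal libraries, which favours a fall. DIP-alpha, at 8.67 CPM on average in control pupal IFM, was not called. Of 51 members tested in control IFM, 3 were higher and 17 lower in adults by edgeR, where 74.4% of all 11347 genes tested were called (37.7% higher and 36.7% lower) and 73.9% had separate group ranges. The members' median log2 difference, adult minus pupa, was -0.66 against -0.04 over all genes. The 3 members without a test in IFM were beat-IIIa, DIP-iota and dpr5, which did not pass the filter on low counts.

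The side gene fell from 94.5, 82.5 and 114 CPM in pupae to 9.29, 6.96 and 5.17 CPM in adults (log2 -3.76 ± 0.23, SE, edgeR adjusted p 4.77e-08). For side-V the adult values were 1.76, 2 and 1.38 CPM (log2 -3.62 ± 0.18, adjusted p 7.17e-09), and for side-IV they were 1.97, 2.21 and 1.24 CPM (log2 -2.91 ± 0.21, adjusted p 1.92e-07). The groups of all 3 side genes were far apart, with each pupal value several times the highest adult one. For dpr19 the adult values were 1.35, 1.54 and 0.992 CPM (log2 -3.98 ± 0.20, adjusted p 8.57e-09), for DIP-epsilon 2.38, 2.33 and 2.13 CPM (log2 -2.69 ± 0.23, adjusted p 7.72e-07) and for dpr10, the muscle partner of DIP-alpha, 1.00, 0.916 and 0.284 CPM after 5.66, 2.77 and 4.09 CPM in pupae (log2 -2.49 ± 0.41, adjusted p 0.000166). Their groups did not overlap either. The gene dpr16 fell from 1.90, 2.61 and 1.86 CPM to 0.380, 0 and 0.177 CPM (log2 -3.45 ± 0.77, adjusted p 0.00162), with 0 to 11 counts per adult library and the overlap with cno named above.

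The rises were smaller. For dpr7, a dpr gene on chromosome 4 (247124 to 253329), 4.11, 1.57 and 3.87 CPM in pupae became 9.74, 8.46 and 8.86 CPM in adults (log2 1.52 ± 0.26, edgeR adjusted p 0.000235, and 0.95 with the length trend removed). For side-VIII 3.21, 1.74 and 2.48 CPM became 8.25, 5.75 and 6.70 CPM (log2 1.49 ± 0.26, adjusted p 0.000262). For beat-VII 1.67, 1.36 and 1.86 CPM became 3.83, 3.08 and 2.30 CPM (log2 0.92 ± 0.27, adjusted p 0.00839). In each of these genes every adult library lay above every pupal one.

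DIP-alpha, the receptor of Dpr10 and Dpr6, was not called in muscle. It stood at 9.05, 6.35 and 10.6 CPM in pupal and 10, 8.16 and 8.90 CPM in adult control IFM, overlapping ranges with a log2 difference of 0.07 (95% interval -0.39 to 0.53, edgeR adjusted p 0.774). By family, 1 dpr gene rose and 3 fell, 0 and 3 DIP genes, 1 and 6 beat genes and 1 and 5 side genes, of 20, 10, 13 and 8 tested.

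Neuron markers went both ways in muscle between the stages. The sum of the 8 markers was 615, 477 and 684 CPM in control pupal IFM and 918, 689 and 699 CPM in control adult IFM, so all adult values exceeded all pupal ones, by a narrow margin. Most of this sum came from unc-13, at 385 CPM in pupae and 482 CPM in adults on average. Of the 8, cpx, Rab3, Syt1 and Syx1A were called higher in adults by edgeR, elav was called lower (69.7 to 35.9 CPM on average) and brp, nSyb and unc-13 were not called. All 54 members summed to 300, 225 and 310 CPM in pupal and 121, 93.3 and 80 CPM in adult control IFM. The 50 members other than side, side-V, dpr19 and DIP-epsilon summed to 147, 96.9 and 130 CPM and to 106, 80.5 and 70.3 CPM, which overlap. The genes left out were picked as high in these same pupal libraries, which lowers the pupal sum. The overlap therefore does not show that the other members held steady. Myoblast markers (twi, zfh1, Him and sns) went from 204 to 334 CPM to 77.5 to 84.1 CPM, while haemocyte markers went from 28.5 to 45.4 CPM to 841 to 1488 CPM and glial markers from 210 to 269 CPM to 1886 to 2051 CPM. The glial sum was carried by Gs2 (94.5 to 1207 CPM on average), Eaat1 and nrv2, while repo, the nuclear marker of glia, went from 11.2 to 11.8 CPM to 6.75 to 9.04 CPM. Fat body markers went from 7651 to 15402 CPM to 32221 to 41226 CPM, where apolpp and Yp1 rose while Fbp1, Lsp1alpha and Lsp2 fell. Epidermal markers went from 208 to 295 CPM to 78.2 to 104 CPM. The part of these cell types in the members' changes was not tested. Other cell recognition genes gave 6 higher and 34 lower of 49, with a median of -1.05.

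With the libraries restricted to 1 title tag per stage, 13 members were called in IFM (3 higher and 10 lower). Leaving out 1 library at a time gave 14 to 22, and 7998 to 8199 over all genes, against 8445 with all libraries. The count over all genes with 1 title tag per stage is not given. The call was kept in all alternatives by 13 of the 20, and lost in at least 1 by beat-Vc, beat-VI, side-III, beat-Ic, beat-IIa, DIP-kappa and DIP-beta.

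**Figure D3:**
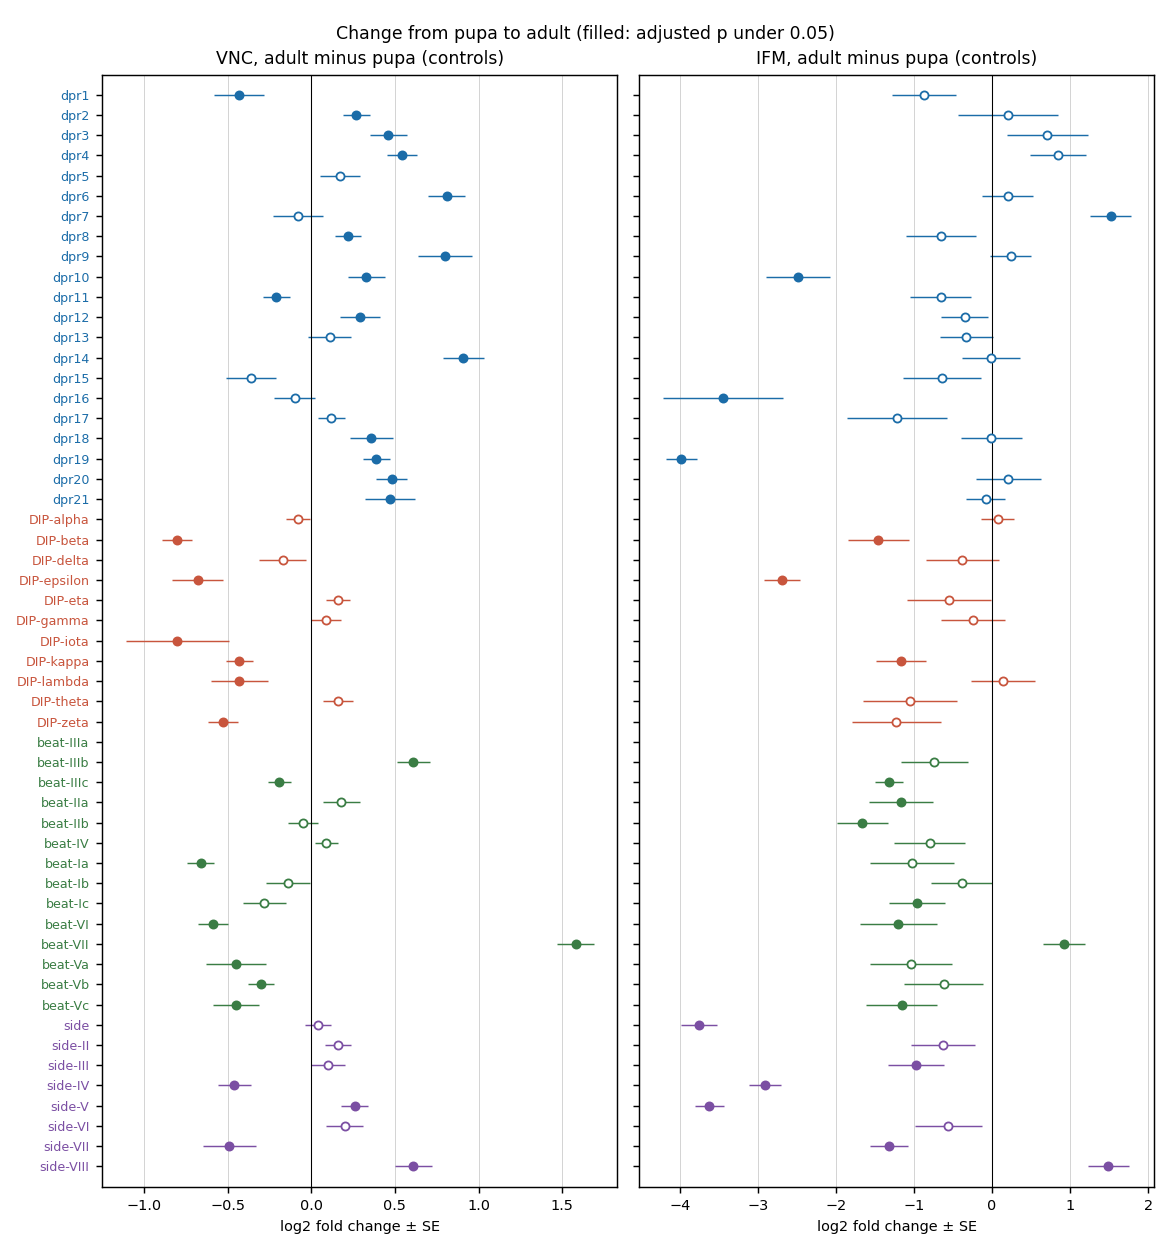
Change from pupa to adult in control VNC (left) and control IFM (right) for each member, as log2 fold change with its standard error from edgeR, on separate scales; filled points have an adjusted p under 0.05. In VNC dpr points lie mostly to the right of 0 and DIP points mostly to the left, with beat-VII farthest at 1.58, whereas in IFM the falls of dpr19, side, side-V, dpr16, side-IV, DIP-epsilon and dpr10 exceed 2.

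In the nerve cord members went both ways, mostly by less than 1 on the log2 scale. Of 53 members tested in control VNC, 17 were higher and 16 lower in adults by edgeR, where 64.3% of all 11870 genes tested were called (31.7% higher and 32.6% lower) and 74% had separate group ranges. The median log2 difference, adult minus pupa, was 0.09 against 0.05 over all genes. Of 21 dpr genes 13 rose and 2 fell (median 0.29), of 11 DIP genes none rose and 6 fell (median -0.43), of 13 beat genes 2 rose and 6 fell (median -0.19), and of 8 side genes 2 rose and 2 fell (median 0.13). The difference between families was not tested.

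The largest rise was that of beat-VII, on 3R (26645282 to 26681966), from 83.3, 79.8 and 75.4 CPM in pupae to 250, 250 and 233 CPM in adults (log2 1.58 ± 0.11, edgeR adjusted p 1.85e-07). Next came dpr14 with 68.7, 71.8 and 69.7 CPM against 143, 118 and 143 CPM (log2 0.91 ± 0.12, adjusted p 4.19e-05), and dpr6, a ligand of DIP-alpha, with 91.4, 79.8 and 76.3 CPM against 154, 147 and 143 CPM (log2 0.81 ± 0.11, adjusted p 4.86e-05). The groups of these genes did not overlap. The log2 rises of dpr9 (0.80 ± 0.16), beat-IIIb (0.61 ± 0.10) and side-VIII (0.61 ± 0.11) were called as well.

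The falls were led by DIP-beta, from 128, 131 and 131 CPM in pupae to 79.6, 74.8 and 75.8 CPM in adults (log2 -0.80 ± 0.09, edgeR adjusted p 1.19e-05). Its neighbour in rank, DIP-iota, had the same log2 value with a larger error (-0.80 ± 0.31, adjusted p 0.0416) at about 1 CPM, and its call was lost in 6 of 6 fits without 1 library. Then came DIP-epsilon with 64.6, 60.4 and 65.5 CPM against 42.8, 38.7 and 40.3 CPM (log2 -0.68 ± 0.15, adjusted p 0.00146) and beat-Ia, the receptor of Side on motor axons, with 144, 153 and 158 CPM against 98.4, 95 and 102 CPM (log2 -0.66 ± 0.08, adjusted p 2.32e-05). Each pupal library lay above each adult one in these genes. The log2 falls of beat-VI (-0.59 ± 0.09), the partner of Side-II, and DIP-zeta (-0.53 ± 0.09) were called too.

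The neuron marker sum differed over the same interval, from 7508 to 8118 CPM in control pupal VNC to 15462 to 17010 CPM in control adult VNC, and 7 of the 8 were called higher while elav was called lower (log2 -1.05 ± 0.14). Glial markers went from 921 to 978 CPM to 4255 to 4332 CPM. Fat body markers went from 14912 to 17998 CPM to 5375 to 6231 CPM, although Yp1 rose, and epidermal markers from 640 to 690 CPM to 45.8 to 51.7 CPM. Their part in the members' changes was not tested. The 49 other cell recognition genes gave 6 higher and 34 lower, with a median of -0.70. Calls near the threshold were sensitive to single libraries: 21 members were called without adult control replicate 3 (12 higher and 9 lower) and 21 without pupal control replicate 2 (12 and 9), and 18 of the 33 calls were kept in all alternatives. Over all genes, fits without 1 library called 6886 to 7353, against 7627 with all libraries.

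Both tissues moved together for some members and apart for others. Higher in adults in both were beat-VII and side-VIII, and lower in both were DIP-beta, DIP-epsilon, DIP-kappa, beat-IIIc, beat-VI, beat-Vc, side-IV and side-VII. Without 1 library the IFM call was lost in 6 of 6 fits for beat-Vc, 4 for beat-VI and 1 for DIP-kappa. The VNC call was lost in 4 of 6 for beat-IIIc, 3 for side-VII and 2 for beat-Vc. Of all genes tested, 74.4% were called by stage in IFM and 64.3% in VNC, and the share called in both is not given. Lower in adult IFM but higher in adult VNC were dpr10, dpr19 and side-V, although the VNC call of dpr10 was lost in 4 of 6 fits without 1 library. The test of the difference itself, the stage by tissue interaction in controls, called 22 of 53 members (3 higher and 19 lower, as IFM change minus VNC change), where 53% of all genes were called (26.4% higher and 26.6% lower).

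The largest negative interactions were those of dpr19 (log2 -4.44 ± 0.20, edgeR adjusted p 1.17e-12), side-V (-3.94 ± 0.17, 4.15e-13) and side (-3.86 ± 0.25, 9.63e-11). In VNC side did not pass the stage test, with 236 to 245 CPM in pupae and 248 to 259 CPM in adults, and side-V rose from 73.9 to 84.3 CPM to 91.4 to 100 CPM (log2 0.26 ± 0.08), a call lost in 3 of 6 fits without 1 library. Then followed dpr16 (-3.38 ± 0.53), dpr10 (-2.90 ± 0.37) and side-IV (-2.52 ± 0.21), all called. The called positive values were those of dpr7 (1.51 ± 0.30, adjusted p 0.000311), side-VIII (0.82 ± 0.26, adjusted p 0.0115) and DIP-iota, which rests on 1 count in all 3 control pupal IFM libraries together and is no measure of size.

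Genes whose proteins bind each other were set side by side in both tissues. In control pupae side, the muscle ligand, stood at 82.5 to 114 CPM in IFM and 236 to 245 CPM in VNC, and its receptor gene beat-Ia at 1.41 to 2.37 CPM in IFM and 144 to 158 CPM in VNC. Dpr10, the ligand of DIP-alpha, stood at 2.77 to 5.66 CPM in pupal IFM and 50.4 to 54.8 CPM in pupal VNC, whereas DIP-alpha stood at 6.35 to 10.6 CPM and 86.5 to 95 CPM. Ligand and receptor genes of both pairs were thus counted in both tissues, and all 4 were lower in IFM.

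The pair of dpr11 and DIP-gamma, which matches colour photoreceptors with their targets in the fly eye, had 206 to 215 and 71.6 to 77.7 CPM in pupal VNC and 1.85 to 3.33 and 0.706 to 1.31 CPM in pupal IFM. For dpr12 and DIP-delta, known from the mushroom body of the brain, the ranges were 329 to 354 and 148 to 160 CPM in VNC and 3.91 to 7.50 and 1.19 to 2.99 CPM in IFM. Of these genes, dpr12 was called higher and dpr11 lower in adult VNC (log2 0.29 ± 0.12, edgeR adjusted p 0.0457, and -0.21 ± 0.08, adjusted p 0.0492), but each call was lost in 5 of 6 fits without 1 library. DIP-gamma and DIP-delta did not pass (log2 0.09 ± 0.09 and -0.17 ± 0.14).

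Among the Beat and Side pairs, side-II was at 168 to 177 CPM in control pupal VNC and its partner beat-VI at 184 to 189 CPM, and in adults side-II was at 196 to 202 CPM and beat-VI at 125 to 131 CPM. For side-IV and beat-IIb the pupal VNC ranges were 148 to 164 and 54.8 to 57.4 CPM and the adult ones 111 to 119 and 54.3 to 56.7 CPM. The call for side-IV in VNC was lower (log2 -0.46 ± 0.10, edgeR adjusted p 0.00119), while beat-IIb did not pass (-0.05 ± 0.09). For side-VI and its partners beat-Va, beat-Vb and beat-Vc the pupal ranges were 196 to 224, 93.5 to 104, 39.8 to 40.5 and 44 to 45.7 CPM. The 3 beat genes were called lower in adult VNC (log2 -0.45 ± 0.18, -0.30 ± 0.08 and -0.45 ± 0.14). Without 1 library the call of beat-Va was lost in 5 of 6 fits, that of beat-Vc in 2 of 6 and that of beat-Vb in none, and side-VI did not pass (0.20 ± 0.11).

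**Figure D4:**
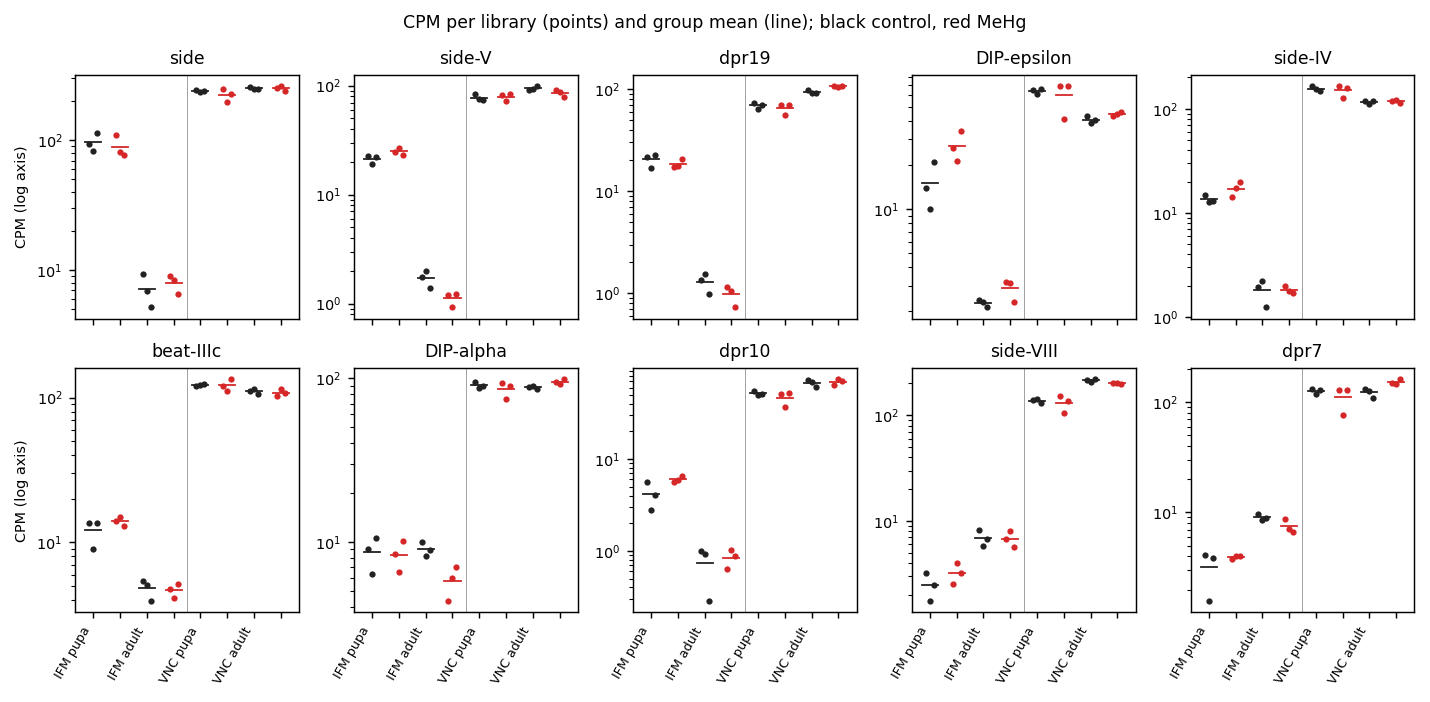
CPM (log axis, 1 point per library, line at the group mean, n = 3) of 10 members in the 8 groups, IFM left and VNC right of the grey line, black for control and red for MeHg. In IFM the first 6 genes and dpr10 drop from pupa to adult in both treatments, DIP-alpha lies between 6.35 and 10.6 CPM in controls at both stages, and side-VIII and dpr7 rise, while in VNC changes are small.

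The comparison the study was built for is that of MeHg with control food. No member passed the test in any of the 4 tissue and stage combinations. In pupal IFM 0 of 51 members were called by edgeR, where 3.01% of all genes were called (0.917% higher and 2.09% lower), and 3 members had an unadjusted p under 0.05. In pupal VNC 0 of 53 were called and 0 had an unadjusted p under 0.05 (0.531% of all genes called, 0.152% higher and 0.379% lower). In adult IFM 0 of 51 were called and 5 had an unadjusted p under 0.05 (7.6% of all genes called, 3.67% higher and 3.93% lower). In adult VNC 0 of 53 were called and 5 had an unadjusted p under 0.05 (0.0674% of all genes called, 0.0253% higher and 0.0421% lower). DESeq2 called 1 member in pupal IFM, 1 in adult IFM, 1 in adult VNC and 0 in pupal VNC. The percentages above are shares of edgeR calls at an adjusted p under 0.05. The share of all genes at an unadjusted p under 0.05 is not given, nor is the share called by DESeq2. Both kinds of count, here and below, lack that background.

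The member nearest to a call in pupal IFM was DIP-epsilon, at 14.0, 9.93 and 20.9 CPM in controls and 26.0, 21.1 and 34.2 CPM with MeHg, which were separate by a narrow margin, as were the ranges of 21.7% of all genes. Its log2 difference was 0.82 ± 0.21 (95% interval 0.35 to 1.29, edgeR adjusted p 0.064). DESeq2 (adjusted p 0.0117), limma voom with quality weights (0.02) and edgeR without control replicate 3 (0.0269) called it. The other 2 with a low unadjusted p were dpr4 (log2 0.98 ± 0.37, adjusted p 0.173), at 0.536 to 1.09 CPM in controls and 1.44 to 1.79 CPM with MeHg, and dpr9 (0.65 ± 0.26, adjusted p 0.194), at 2.37 to 2.86 and 3.51 to 4.80 CPM.

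The other genes that stood high in pupal muscle did not pass the test. Side stood at 110, 80.9 and 76.5 CPM with MeHg (log2 -0.16, 95% interval -0.60 to 0.29), dpr19 at 17.4, 17.7 and 20.8 CPM (-0.17, -0.54 to 0.20) and side-V at 24.7, 26.8 and 23.3 CPM (0.20, -0.13 to 0.54). The first 2 overlapped their controls and side-V lay just above them. The intervals leave room for changes of either sign.

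Across the set the median log2 difference in pupal IFM was 0.28, with 42 of 51 values above 0, against 0 over all genes. It moved to 0.10 without MeHg replicate 2, 0.46 without control replicate 1 and 0.18 without control replicate 2. Neuron markers in the same libraries summed to 615, 477 and 684 CPM in controls and 865, 767 and 895 CPM with MeHg, and the myoblast markers to 334, 204 and 328 CPM and 722, 550 and 910 CPM. Neither pair of ranges overlapped. Among the neuron markers only unc-13, which made up most of their sum, had separate ranges (305 to 468 and 517 to 645 CPM), and edgeR called none of the 8. The myoblast sum rested mostly on sns (197 and 599 CPM on average), zfh1 was separate as well, and twi and Him overlapped. The part of neuronal or myoblast RNA in the members' median was not tested. The 49 other cell recognition genes had a median of 0.29, and sns, rst and Fas2 were called higher, the first 2 being receptors of myoblast fusion.

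In adult IFM, from flies kept 15 days on food free of MeHg, the members lay below their controls more often than above. Their median log2 difference was -0.34, with 44 of 51 below 0, against -0.01 over all genes. It was -0.09 without control replicate 1, -0.18 without MeHg replicate 4, whose title tag no control has, and -0.54 without control replicate 3. Neuron markers summed to 918, 689 and 699 CPM in controls and 576, 673 and 765 CPM with MeHg, which overlap. Muscle markers ran from 59432 to 80290 CPM in controls and from 43005 to 54265 CPM with MeHg, glial markers from 1886 to 2051 and from 1496 to 1737 CPM, and fat body markers from 32221 to 41226 and from 15265 to 26300 CPM. These ranges of sums were separate, but single markers went both ways. In the muscle list Act88F, bt and sls had separate, lower ranges with MeHg and TpnC4 a higher one, in the glial list only Gs2 was separate (1207 and 895 CPM on average), and in the fat body list Yp1 was lower and Lsp1alpha higher. Their part in the members' median was not tested.

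The lowest p-values in adult IFM were those of beat-VII, at 3.83, 3.08 and 2.30 CPM in controls and 1.37, 1.87 and 1.52 CPM with MeHg (log2 -0.89 ± 0.26, edgeR adjusted p 0.0661), and of beat-IIb, at 0.587, 0.875 and 0.957 CPM and 0.275, 0.283 and 0.471 CPM (-1.14 ± 0.36, adjusted p 0.0778). The groups did not overlap in either gene, and the counts behind beat-IIb were only 17 to 27 and 6 to 13 per library. DESeq2 and edgeR with the length trend removed called beat-VII (adjusted p 0.0403 and 0.0443). DIP-alpha had 10, 8.16 and 8.90 CPM in controls and 4.35, 6.01 and 6.99 CPM with MeHg (log2 -0.57 ± 0.21, adjusted p 0.12), side-V had 1.38 to 2 and 0.920 to 1.23 CPM (-0.55 ± 0.18, adjusted p 0.0872) and dpr18 had 1.21 to 1.73 and 0.435 to 1.10 CPM (-0.97 ± 0.40, adjusted p 0.164). Their ranges were separate as well, as were those of 27.3% of all genes in that comparison.

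In the nerve cord MeHg differences were small. The members' median was -0.06 in pupal VNC, with values from -0.38 to 0.16, and 0.02 without MeHg replicate 2, the library that stood apart. Over all genes it was 0. In that library the 54 members summed to 4236 CPM, against 5636 and 5790 CPM in the other MeHg libraries and 5517 to 5693 CPM in the controls, beside its low neuron marker sum.

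In adult VNC the median was 0.08 against 0.05 over all genes, and 0.14 without control replicate 1. The 5 members with an unadjusted p under 0.05 were dpr20 (log2 -0.28 ± 0.09), dpr19 (0.24 ± 0.08), dpr14 (0.34 ± 0.12), dpr7 (0.37 ± 0.15) and DIP-alpha (0.17 ± 0.07), with edgeR adjusted p from 0.285 to 0.361. DESeq2 called dpr20 (adjusted p 0.017). For side, the 95% interval in adult VNC ran from -0.14 to 0.24 on the log2 scale.

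**Figure D5:**
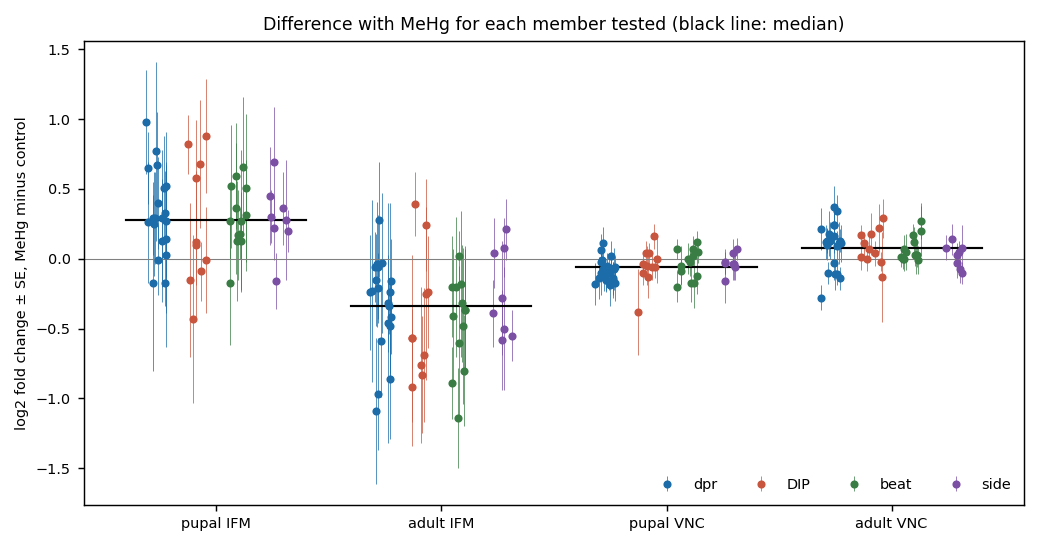
Log2 fold change with MeHg against control for every member tested, with its standard error, by tissue and stage and coloured by family, and the median over members as a black line. IFM values scatter widely around medians of 0.28 in pupae and -0.34 in adults, VNC values lie close to 0, and no point has an adjusted p under 0.05.

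Whether MeHg acted alike in both tissues was tested as an interaction. In adults 0 members were called higher and 2 lower (IFM effect minus VNC effect), where 3.38% of all genes were called (1.33% higher and 2.05% lower). These were beat-VII (log2 -0.99 ± 0.24, edgeR adjusted p 0.0318) and beat-IIb (-1.16 ± 0.31, adjusted p 0.0437). In adult VNC beat-VII had 250, 250 and 233 CPM in controls and 255, 266 and 247 CPM with MeHg, and beat-IIb had 55.6, 54.3 and 56.7 CPM and 51.3, 54.7 and 58.5 CPM, overlapping in both. The calls were fragile: beat-VII lost its call in 11 of 21 alternatives (highest adjusted p 0.205) and beat-IIb in 16 of 21 (highest 0.196), and both lost it with only the compared groups in the fit and with a replicate block. Without adult IFM control 1, adult VNC control 2 or 3, adult IFM MeHg 1 or 4 or adult VNC MeHg 3 or 4, beat-VII had an adjusted p from 0.0506 to 0.0926.

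In pupae the MeHg by tissue interaction called 0 of 53 members by edgeR (0.245% of all genes, 0.0792% higher and 0.166% lower), with 7 at an unadjusted p under 0.05 and 1 called by DESeq2. The MeHg by stage interaction called 0 of 51 members in IFM (2.69% of all genes, 1.52% higher and 1.17% lower, with 10 members at an unadjusted p under 0.05) and 0 of 53 in VNC (0.00842%, 4 members). These percentages are shares of edgeR calls at an adjusted p under 0.05, so they are no background for the unadjusted counts. DESeq2 called no member in either stage interaction.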

How the data were processed

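Per the labels' protocols, total RNA of 24 samples went into stranded libraries. The deposited values are raw read counts per gene, made by the authors with bcl2fastq 2.19.0, STAR 2.7.6a and featureCounts of Subread 2.0.1 on dm6, per the submitters' processing notes. The strand setting is not given in the sources used here.

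Counts were tested with the quasi-likelihood test of edgeR 4.0.16 (R 4.3.3), after filtering with filterByExpr and scaling by TMM, with p-values adjusted by Benjamini-Hochberg over all genes tested and called at an adjusted p under 0.05. Fits for MeHg and stage used each tissue's 12 libraries, and those for tissue effects and tissue interactions used all 24, with 8 and 16 residual degrees of freedom. CPM is scaled by TMM over all 24 libraries, and RPKM divides it by union exon length. Errors of fold changes are standard errors. No 2 libraries of a group held identical values. The fits were also run on simulated data with few changed genes, none at the low levels of most members in IFM. That outcome is not given or used here. Members and gene lists were chosen with earlier results of these data known.

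Genes were named by a rule: all called members where a comparison called 12 or fewer, otherwise the 6 largest rises and falls among called members with separate group ranges and at least 1 CPM, plus known binding pairs and the 3 highest members of each family by RPKM. Genes nearest to a call under MeHg were named after their values were seen. Alternatives were RLE scaling, no count filter, DESeq2 1.42.0, limma 3.58.1 voom, removal of the length trend, the title tag as a term or fixed, a replicate block, fewer groups in the fit, and leaving out each library. Counting intervals and floors cover counting error only.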

Additional observations from a re-analysis of the deposited data

Results flagged for a closer look

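A tested difference between the tissues brought 24 values to attention. All are log2 interactions from edgeR, as the IFM effect minus the VNC effect, with an adjusted p under 0.05, and no cause was tested for any of them.

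For MeHg in adults these were beat-VII at -0.99 (adjusted p 0.0318) and beat-IIb at -1.16 (adjusted p 0.0437), in both of which the 3 treated IFM libraries lay below the 3 controls while the VNC libraries overlapped. Of these 2 calls 0 were kept in every alternative, and 3.38% of all genes were called in the same test.

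For stage in controls the side family had side at -3.86, side-V at -3.94, side-IV at -2.52, side-III at -1.14, side-VII at -0.92 and, with the opposite sign, side-VIII at 0.82. Among dpr genes dpr19 had -4.44, dpr16 -3.38, dpr10 -2.9, dpr14 -1.0, dpr21 -0.64 and dpr7 1.51. DIP genes gave -2.1 for DIP-epsilon, -1.26 for DIP-theta, -0.8 for DIP-kappa and 3.34 for DIP-iota, the last on 0 to 4 counts per control IFM library. Beat genes gave -1.71 for beat-IIb, -1.45 for beat-IIIb, -1.43 for beat-IIa, -1.21 for beat-IIIc, -0.95 for beat-IV and -0.75 for beat-VII, which rose in both tissues and more in VNC. The calls of beat-IV, dpr21, beat-VII, dpr14, DIP-kappa, DIP-theta and side-VII were lost under at least 1 alternative, and the other 15 were kept in all that were run.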

How the results depend on the processing

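No member's called value changed sign under any alternative run. The 53 tissue calls in adults and 52 of 53 in pupae were kept throughout, side being lost with the length trend removed. In the stage comparison of IFM, 13 members were called with 1 title tag per stage, against 20, and leaving out 1 library gave 14 to 22. In the VNC it gave 21 to 26, against 33. Over all genes, leaving out 1 library gave 7998 to 8199 calls in IFM, against 8445, and 6886 to 7353 in VNC, against 7627.

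The MeHg counts of 0 became 1 in pupal IFM under DESeq2 and under limma voom (0 to 1 without 1 library), 1 in adult IFM under DESeq2 and with the length trend removed, and 1 in adult VNC under DESeq2. The MeHg by tissue count in pupae was 1 under DESeq2 and 0 to 1 without 1 library. In adults the count of 2 became 1 with RLE scaling, 1 without the filter, 4 under DESeq2, 0 with the title tag as a term, 0 with 1 tag per stage, 0 with only the compared groups in the fit, and 0 to 2 without 1 library. Over all genes the MeHg counts in pupal IFM ran from 0 to 949 and in adult IFM from 50 to 1522, so these counts depend strongly on the fit.

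Same-numbered libraries did not deviate together in every comparison, with correlations from -0.34 to 0.37, so the numbers were not taken as pairs. Between IFM and VNC of the MeHg groups they did, from 0.18 to 0.37 in pupae (-0.26 to -0.02 for different numbers) and from 0.11 to 0.28 in adults (-0.27 to 0.14, which overlaps), but not in the control groups (-0.32 to 0.24). Same-numbered control and MeHg libraries of adult VNC did as well, at 0.37 and 0.28, against -0.34 to 0.16 for different numbers. The MeHg counts of 0 within each tissue and stage did not change with a replicate block. With a replicate block the members called were 53 by tissue at each stage, 20 for stage by tissue, 18 by stage in IFM, 29 by stage in VNC, 0 for MeHg by tissue in pupae and 0 for MeHg by tissue in adults.

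Depth limits the IFM values, where most members stood at a few CPM, and intervals there are wide.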
